A study of Mus musculus with 9 samples.

Results

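The genes described here belong to the route that turns squalene into cholesterol, 9 in all: Sqle, Lss, Cyp51, Tm7sf2, Nsdhl, Hsd17b7, Erg28, Ebp and Dhcr7. They encode enzymes, except Erg28, which encodes a scaffold. They were chosen by name, as probes whose platform annotation gives one of these symbols and whose detection p was under 0.05 on at least 3 of 9 arrays. All 9 genes passed this filter, out of 9081 named genes tested. They carry 19 probes, of which 16 were detected, each on 9 of 9 arrays. The other 3, for Sqle, Lss and Hsd17b7, were detected on 0 arrays, and each of those genes kept another probe. The rule uses no measured difference, but the set was proposed with earlier results of these data known.

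The arrays held RNA from bone marrow-derived macrophages of C57Bl/6 mice, grown in medium with 15% L929-conditioned medium, which supplies macrophage growth factor. In the first group the cells received the compound TRAF-STOP 6877002 for 1 h and then the CD40-activating antibody FGK45 at 25 ug/ml for 8 h. In the second group they received TRAF-STOP 6860766 on the same schedule, and in the third (CTRL) they received vehicle and then the same antibody. Each group had 3 arrays, and the labels number the mice 1 to 3 within each group without saying whether an animal was shared. TRAF-STOPs were developed to block the binding of the adaptor TRAF6 to the receptor CD40. The dose of either compound is not given in the sources used here, and all arrays carry the antibody, so nothing below is relative to resting macrophages.

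Squalene is an open-chain intermediate of sterol synthesis. It is epoxidised and closed into the ring system of lanosterol, which is then stripped of methyl groups, has its double bonds moved and reduced, and ends as cholesterol. Most genes of this route are switched on by SREBP2, a membrane-bound transcription factor that is released when sterols in the endoplasmic reticulum run low, and oxysterols restrain it. In macrophages, sterol synthesis, uptake and efflux are balanced against each other, and intermediates of the route act as ligands of the nuclear receptor LXR.

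Expression is given as the deposited log2 value of a probe, normalised between arrays. A difference is given as log2 with its standard error, and a gene is said to have risen or fallen where limma's adjusted p was under 0.05. With 6860766, 6 of the 9 genes fell relative to vehicle (Sqle, Lss, Cyp51, Nsdhl, Hsd17b7 and Erg28) and 0 rose, where 1.79% of all 11406 features fell. The changes of these 6 lay between -0.82 for Nsdhl and -0.39 for Erg28. With 6877002, 2 genes fell relative to vehicle (Lss and Hsd17b7) and 0 rose, where 1.07% of all features fell. In neither comparison was any of the 9 genes higher at an unadjusted p under 0.05 (limma). Between the compounds, Lss, Nsdhl and Hsd17b7 were higher with 6877002 than with 6860766, 3 of 9 where 3.32% of all features were higher. Limma's F test found a difference among the 3 groups for 6 of the 9 genes, where 6.08% of all features differed. These are bulk samples, in which fewer cells of a type and less RNA per cell cannot be told apart.

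The mean level was lowest with 6860766, intermediate with 6877002 and highest with vehicle for 7 of the 9 genes. Tm7sf2 had the order 6877002, vehicle, 6860766, and Dhcr7 the order vehicle, 6860766, 6877002, from high to low. The 2 comparisons with vehicle share the same 3 vehicle arrays, so their values are set side by side and no likeness between them is tested.

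**Figure D1:**
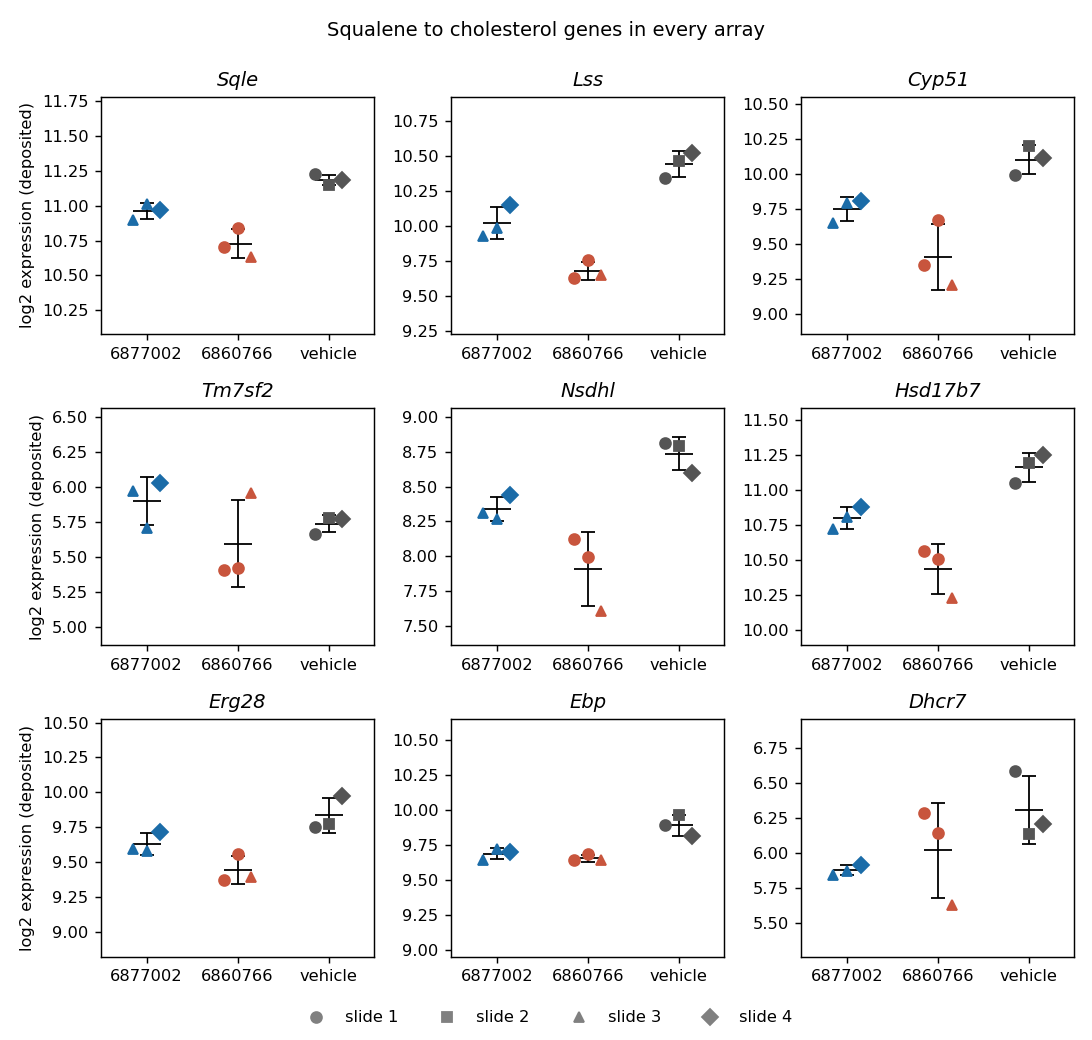
Deposited log2 expression of the 9 genes on every array (vertical axis, a window of the same height in each panel), by group along the horizontal axis. Each symbol is 1 array and its shape is the slide it was on, and the bars are the mean and SD of 3 arrays. The 3 arrays of 6877002 lie below all 3 vehicle arrays for 8 genes, where 11.9% of all features did. Those of 6860766 do so for 7 genes, where 7.44% of all features did.

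The stretch around the start of a gene is where SREBP2 and its partner factors NF-Y and Sp1 are known to act. The promoter windows of 4 of the 6 genes that fell with 6860766 are shown. Of the others, Sqle had no window, and the Erg28 window, which holds no NF-Y box, is not printed. The windows run from 250 bases before to 50 bases after the annotated start, 5′ to 3′ on the gene's strand, from RefSeq (GRCm38.p6). Capitals mark the NF-Y box, CCAAT or its complement ATTGG. The windows are chr10:76531355-76531654 on the plus strand for Lss, chr5:4104648-4104947 on the minus strand for Cyp51, chrX:72918271-72918570 on the plus strand for Nsdhl and chr1:169969156-169969455 on the minus strand for Hsd17b7.
Lss: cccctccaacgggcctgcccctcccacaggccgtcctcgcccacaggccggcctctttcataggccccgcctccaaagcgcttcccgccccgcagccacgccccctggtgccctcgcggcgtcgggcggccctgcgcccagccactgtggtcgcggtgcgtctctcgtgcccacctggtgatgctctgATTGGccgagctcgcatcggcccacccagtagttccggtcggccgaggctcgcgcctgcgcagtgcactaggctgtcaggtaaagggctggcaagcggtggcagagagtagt
Cyp51: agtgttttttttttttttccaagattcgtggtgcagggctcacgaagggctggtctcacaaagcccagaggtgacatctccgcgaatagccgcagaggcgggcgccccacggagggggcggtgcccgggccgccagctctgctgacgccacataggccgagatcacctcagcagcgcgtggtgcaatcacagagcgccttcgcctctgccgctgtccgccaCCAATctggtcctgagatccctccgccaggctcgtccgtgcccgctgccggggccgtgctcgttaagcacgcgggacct
Nsdhl: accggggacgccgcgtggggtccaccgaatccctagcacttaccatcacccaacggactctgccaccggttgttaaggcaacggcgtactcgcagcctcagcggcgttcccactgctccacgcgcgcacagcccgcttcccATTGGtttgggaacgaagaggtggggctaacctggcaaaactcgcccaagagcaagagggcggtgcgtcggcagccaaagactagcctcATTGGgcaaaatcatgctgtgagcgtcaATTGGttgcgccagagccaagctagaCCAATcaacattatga
Hsd17b7: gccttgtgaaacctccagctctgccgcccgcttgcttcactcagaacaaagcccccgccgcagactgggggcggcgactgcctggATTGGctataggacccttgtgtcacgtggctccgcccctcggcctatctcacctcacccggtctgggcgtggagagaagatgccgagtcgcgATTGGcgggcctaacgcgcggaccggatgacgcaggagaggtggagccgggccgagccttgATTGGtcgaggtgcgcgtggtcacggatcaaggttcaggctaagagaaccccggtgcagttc

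A window was matched for 8 of the 9 genes, all except Sqle, and Dhcr7 had 3 windows, which gave 10 in all. The NF-Y box was present, on either strand, for 7 of the 8 genes, against 41.1% of 27025 genes in the table. Nsdhl had 4 NF-Y boxes and Hsd17b7 had 3, Ebp had 2, Lss, Cyp51 and Tm7sf2 had 1 each, and Erg28 had 0. Of all 32851 windows, 3.37% held 3 or more. The box nearest the start lay at bases -62 to -58 in Lss, -29 to -25 in Cyp51 and -12 to -8 in Hsd17b7, counted from the start. The Sp1 box GGGCGG was present for all 8 genes with a window, against 38.2% of genes. Both shares are over all genes in the table, detected here or not. The shares among the genes tested here, or among windows of like GC content, were not counted. The sterol response element spelled TCACNCCAC was in 0 of the 10 windows and in 1.24% of all windows. Both strands were searched, none of the 3 motifs contains another, and a match is a description of letters. Tm7sf2, Ebp and Dhcr7, which did not pass the test in either comparison with vehicle, also hold NF-Y boxes, and Erg28, which fell with 6860766, holds none in its window.

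Sqle encodes squalene epoxidase, which adds oxygen to squalene and is a control point of the late pathway. Its log2 values were 10.90, 11.01 and 10.97 on the 6877002 arrays, 10.71, 10.84 and 10.64 on the 6860766 arrays, and 11.22, 11.15 and 11.18 on the vehicle arrays. The 3 groups did not overlap: every 6860766 array was below every 6877002 array, and every 6877002 array was below every vehicle array. Sqle fell with 6860766 (-0.46 ± 0.07, adjusted p = 0.000638), to 0.729 times the vehicle level. The difference with 6877002 was -0.22 ± 0.07 (adjusted p = 0.0857) and that between the compounds was 0.23 ± 0.07 (adjusted p = 0.0587), and neither passed the test.

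Lss encodes lanosterol synthase, which closes the epoxide into the sterol rings. It read 9.93, 9.98 and 10.15 with 6877002, 9.63, 9.75 and 9.65 with 6860766, and 10.34, 10.47 and 10.52 with vehicle. Again the groups did not overlap, with 6860766 lowest and vehicle highest. Lss and Hsd17b7 were the only genes of the 9 that passed the test in all 3 comparisons. It fell with 6877002 by 0.42 ± 0.08 (adjusted p = 0.00277) and with 6860766 by 0.77 ± 0.08 (adjusted p = 8.33e-06) on the log2 scale, which leaves 0.746 and 0.588 times the vehicle level. The level with 6877002 was 1.27 times that with 6860766 (log2 0.34 ± 0.08, adjusted p = 0.00959), a call that was lost without 6877002 array 3 (log2 0.28, adjusted p = 0.0769).

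Cyp51 encodes the cytochrome P450 that removes the first methyl group of lanosterol. Its values were 9.65, 9.79 and 9.81 with 6877002, 9.35, 9.67 and 9.21 with 6860766, and 9.99, 10.20 and 10.12 with vehicle. Both compound groups lay below all vehicle arrays, but they overlapped each other, because the second 6860766 array was above the first 6877002 array. The fall with 6860766 was 0.69 ± 0.10 (adjusted p = 0.000373). With 6877002 the difference from vehicle was -0.35 ± 0.10 (adjusted p = 0.0572), and between the compounds it was 0.34 ± 0.10 (adjusted p = 0.0527).

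Tm7sf2 encodes a sterol reductase that acts on the double bond left by Cyp51, a step that the lamin B receptor Lbr can also carry out. The probe was dim, with intensities of 129 to 155 on arrays whose median intensity was 98.7 to 113. Its log2 values were 5.97, 5.71 and 6.03 with 6877002, 5.41, 5.42 and 5.96 with 6860766, and 5.67, 5.78 and 5.77 with vehicle. All 3 pairs of groups overlapped. The differences from vehicle were 0.16 ± 0.16 with 6877002 (95% interval -0.17 to 0.50) and -0.14 ± 0.16 with 6860766 (-0.48 to 0.19), and neither passed the test.

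Nsdhl, Hsd17b7 and Erg28 belong to the complex that removes the paired methyl groups at one carbon of the ring. Nsdhl is the dehydrogenase that releases the carboxyl group, Hsd17b7 reduces the ketone that is left, and Erg28 is the scaffold that, in yeast, holds the complex together. Nsdhl read 8.31, 8.27 and 8.44 with 6877002, 8.12, 8.00 and 7.61 with 6860766, and 8.81, 8.79 and 8.60 with vehicle. The groups did not overlap, and the third 6860766 array was the lowest of all 9. Nsdhl had the largest fall of the 9 genes with 6860766, 0.82 ± 0.11 (adjusted p = 0.000276), or 0.565 times the vehicle level. Its difference with 6877002 was -0.39 ± 0.11 (adjusted p = 0.0657), and it was higher with 6877002 than with 6860766 by 0.43 ± 0.11 (adjusted p = 0.0324). That last call was lost without any 1 of the 6877002 arrays, or without 6860766 array 2 or 3, when the difference was 0.28 to 0.47 and the adjusted p 0.0583 to 0.138.

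Hsd17b7 read 10.72, 10.80 and 10.88 with 6877002, 10.56, 10.51 and 10.23 with 6860766, and 11.05, 11.19 and 11.25 with vehicle. Its groups did not overlap either. It fell by 0.36 ± 0.08 with 6877002 (adjusted p = 0.0209) and by 0.73 ± 0.08 with 6860766 (adjusted p = 4.34e-05), and the compounds differed by 0.37 ± 0.08 (adjusted p = 0.0129). The call with 6877002 was lost without 6877002 array 1 or 2 or vehicle array 2 or 3 (adjusted p 0.0771 to 0.142), and that between the compounds without 6877002 array 2 or 3 (0.0612 and 0.0771). Erg28 read 9.59, 9.58 and 9.72 with 6877002, 9.38, 9.56 and 9.40 with 6860766, and 9.75, 9.78 and 9.98 with vehicle, with the 3 groups apart by narrow gaps. It fell by 0.39 ± 0.08 with 6860766 (adjusted p = 0.00936), a call that was lost without the third vehicle array (adjusted p = 0.0636). With 6877002 Erg28 differed from vehicle by -0.20 ± 0.08 (adjusted p = 0.199).

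Ebp encodes the isomerase that shifts a ring double bond, and Dhcr7 the reductase of the final step to cholesterol in one branch of the route. Ebp read 9.65, 9.72 and 9.70 with 6877002, 9.64, 9.69 and 9.65 with 6860766, and 9.89, 9.97 and 9.82 with vehicle. Every compound array was below every vehicle array, and the compounds overlapped. The differences from vehicle were -0.20 ± 0.07 with 6877002 (adjusted p = 0.129) and -0.24 ± 0.07 with 6860766 (adjusted p = 0.0802). Neither passed, and the compounds differed by 0.03 (95% interval -0.11 to 0.18).

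Dhcr7, another dim probe with intensities of 137 to 175, read 5.84, 5.87 and 5.91 with 6877002, 6.28, 6.14 and 5.63 with 6860766, and 6.59, 6.14 and 6.21 with vehicle. The 6877002 arrays were close together and all below vehicle, while the 6860766 arrays spread across both other groups. Its differences from vehicle, -0.43 ± 0.16 with 6877002 (95% interval -0.78 to -0.09) and -0.29 ± 0.16 with 6860766 (-0.64 to 0.05), did not pass the test (adjusted p = 0.18 and 0.503). The difference with 6860766 was -0.098 without 6860766 array 3, -0.42 without 6860766 array 1 and -0.15 without vehicle array 1.

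**Figure D2:**
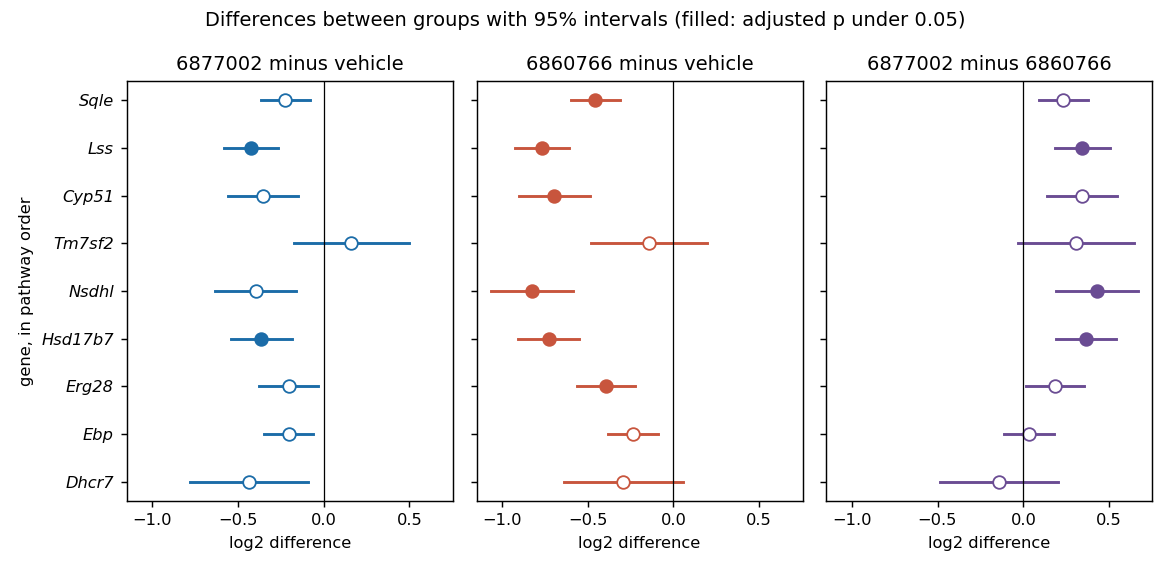
Log2 difference of each gene in pathway order (vertical axis, Sqle at the top) for 6877002 minus vehicle, 6860766 minus vehicle and 6877002 minus 6860766, with the 95% interval of limma's fit. Filled points passed at an adjusted p under 0.05: Lss and Hsd17b7 in the left panel, 6 genes in the middle panel, and Lss, Nsdhl and Hsd17b7 in the right panel.

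Over the 9 genes the median difference from vehicle was -0.35 with 6877002, where the median of all features was -0.0079, and -0.46 with 6860766, where it was 0.010. The median difference between the compounds was 0.31, against -0.020 over all features. The sign was negative for 8 of 9 genes with 6877002 and for 9 of 9 with 6860766. All 3 arrays lay below all 3 vehicle arrays for 8 genes with 6877002, where 11.9% of all features did, and for 7 genes with 6860766, where 7.44% did. The 6877002 arrays lay above all 6860766 arrays for 5 genes, where 9.19% of features did.

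Values of single arrays are given as a description, because they restate the comparisons of groups above and add no support to them. The median difference of the 9 genes from the vehicle mean was -0.42, -0.31 and -0.29 on the 6877002 arrays and -0.48, -0.34 and -0.68 on the 6860766 arrays. The vehicle arrays themselves lay at -0.07, 0.03 and 0.01. The third 6860766 array was the lowest of all 9 arrays for 5 genes and the first for 4. Without the third, 6 genes fell with 6860766.

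The count with 6877002 moved with single arrays. It was 1 gene without 6877002 array 1 or 2 or vehicle array 2 or 3, and 5 without 6860766 array 3, which enters that comparison through the shared spread. The count between the compounds was 1 without 6877002 array 2 and 0 without 6877002 array 3, where 5 genes were higher at an unadjusted p under 0.05 (limma). The count with 6860766 was 5 or 6 whichever array was left out. Lss fell in both comparisons with vehicle whichever single array was left out.

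The 9 arrays sat on 4 slides, which did not hold the groups evenly. Slide 4 held 1 array of 6877002 and 1 of vehicle, and there the median difference of the 9 genes was -0.26. On that slide Lss and Hsd17b7 lay at -0.37, Cyp51 at -0.31, Dhcr7 at -0.29, Erg28 at -0.26, Sqle at -0.21, Nsdhl at -0.16, Ebp at -0.12 and Tm7sf2 at 0.25. Slide 1 held 2 arrays of 6860766 and 1 of vehicle, and there the median was -0.45, and the genes lay between -0.76 for Nsdhl and -0.23 for Ebp. Slide 3 held 2 arrays of 6877002 and 1 of 6860766, and there the median was 0.31, and the genes lay between 0.68 for Nsdhl and -0.12 for Tm7sf2. With slide as a block in the fit, 6 genes fell with 6860766 and 1 with 6877002, and 5 were higher with 6877002 than with 6860766. The median with 6877002 was then -0.18, and Nsdhl with 6877002 was -0.13 (adjusted p = 0.668).

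More than 1 detected probe read Sqle, Lss, Nsdhl and Erg28, and the values above are those of the brightest probe of each. Over all 16 detected probes of the 9 genes, 4 fell with 6877002, where 0.841% of 16415 probes did, and 11 fell with 6860766, where 1.54% did. Between the compounds 4 of 16 were higher with 6877002, where 3% of probes were. All 4 Nsdhl probes fell with 6860766, the other 3 by 0.76, 0.68 and 0.62, and 1 of them also fell with 6877002 (-0.43, adjusted p = 0.0305). All 3 Erg28 probes fell with 6860766, the other 2 by 0.33 and 0.41, and 1 of them also fell with 6877002 (-0.30, adjusted p = 0.0439). On these other 2 Erg28 probes the compounds overlapped each other (differences 0.14 and 0.11, adjusted p = 0.444 and 0.54). They also overlapped on 1 of the other 3 Nsdhl probes (0.37, adjusted p = 0.171).

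The second Sqle probe differed from vehicle by -0.46 with 6877002 (adjusted p = 0.0953) and by -0.54 with 6860766 (adjusted p = 0.0513). It passed in neither comparison, although its 6 compound arrays were below its 3 vehicle arrays. On this probe the 2 compounds overlapped and differed by 0.07 (adjusted p = 0.866), unlike on the brightest Sqle probe. The second Lss probe disagreed with the first. It was dim, at 4.99 to 5.60, was annotated to another transcript record, and differed by 0.05 with each compound (standard error 0.18). Averaging the 2 Lss probes left -0.19 with 6877002 (adjusted p = 0.334) and -0.36 with 6860766 (adjusted p = 0.0557), and 0.17 between the compounds (adjusted p = 0.366), so that Lss passed in none of the 3 comparisons.

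**Figure D3:**
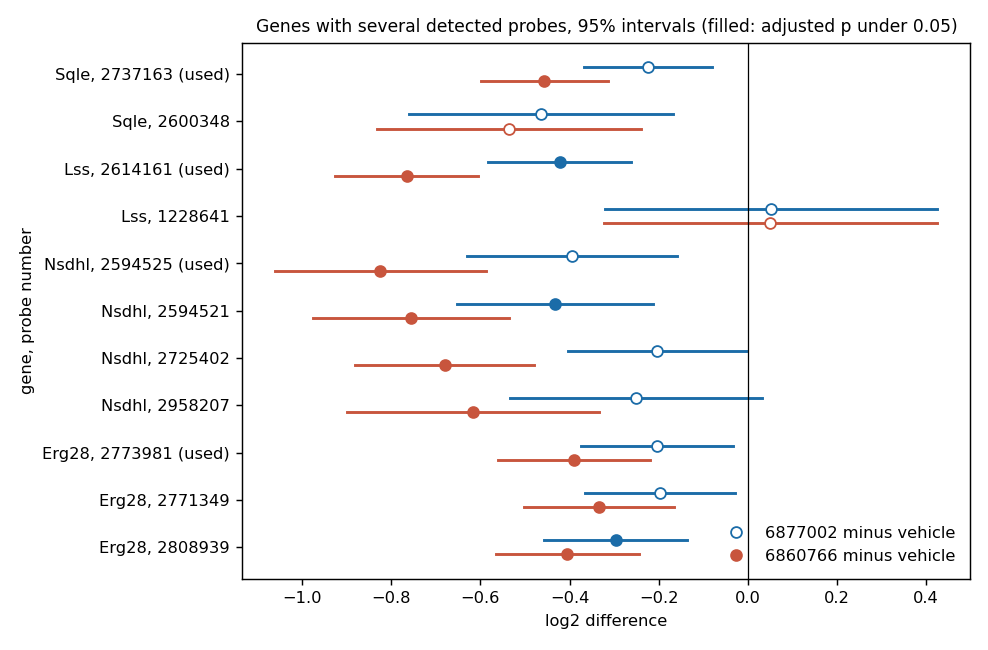
Log2 difference from vehicle (horizontal axis) for each detected probe of the 4 genes with several, with 95% intervals, and the probe that stands for the gene marked as used. Filled points passed at an adjusted p under 0.05. The Nsdhl and Erg28 probes all lie below 0, and the second Lss probe lies at 0.05 for both compounds.

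Across the 9 arrays, each gene's values were set against the mean of the other 8 genes, as a description, since arrays of one group share their treatment. Pearson's r was between 0.91 and 0.98 for Sqle, Lss, Cyp51, Nsdhl, Hsd17b7 and Erg28, and was 0.85 for Ebp, 0.43 for Dhcr7 and 0.028 for Tm7sf2. After the group means were removed, r was between 0.42 and 0.73 for the first 6 genes, 0.11 for Ebp, 0.037 for Dhcr7 and -0.71 for Tm7sf2. Dhcr7 and Tm7sf2, which had the lowest r over the 9 arrays, have the dim probes. Ebp, whose r was low only with the group means removed, has a bright probe (9.64 to 9.97).

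Of 9072 other named genes, those whose pattern over the 9 arrays was most like the mean of the set were Ccdc86, Fdps, C1rl, Clec4a1, Tagap, Lacc1, Scd1 and Acly, with r between 0.980 and 0.958. Fdps makes farnesyl diphosphate, the precursor of squalene, Acly makes the cytosolic acetyl-CoA from which sterols and fatty acids are built, and Scd1 desaturates fatty acids. Clec4a1 encodes a lectin of myeloid cells. The C1rl probe was dim, at 4.53 to 5.59 on arrays whose median over all probes was 4.53. With the group means removed, r was highest for Tagap (0.94) and Clec4a1 (0.89). It was then 0.78 for C1rl, 0.76 for Fdps, 0.75 for Ccdc86, 0.63 for Acly, 0.63 for Lacc1 and 0.21 for Scd1.

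Upstream of squalene, the mevalonate pathway was read by 5 of 9 listed genes, and the other 4 were not analysed here. With 6877002, Mvd and Fdps fell (by 0.42 and 0.30), and with 6860766 Pmvk, Mvd and Fdps fell (by 0.66, 0.63 and 0.70). These encode the second kinase, the decarboxylase and the farnesyl diphosphate synthase of the pathway. The median difference of the 5 genes was -0.26 with 6877002 and -0.63 with 6860766, and Pmvk and Fdps were higher with 6877002 than with 6860766 by 0.45 and 0.40. Fdps read 12.47, 12.48 and 12.53 with 6877002, 12.18, 12.18 and 11.92 with 6860766, and 12.71, 12.83 and 12.84 with vehicle, in 3 groups that did not overlap. Pmvk differed by -0.21 ± 0.11 with 6877002 (adjusted p = 0.364). Mvk, the kinase that acts first on mevalonate, differed by -0.26 ± 0.14 with 6877002 (adjusted p = 0.359) and by -0.50 ± 0.14 with 6860766 (adjusted p = 0.0557). Idi1, the isomerase of the isoprene units, differed by 0.27 ± 0.17 with 6877002 and by -0.23 ± 0.17 with 6860766, and neither passed.

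Among the other genes of the route after squalene, Msmo1, the oxidase that starts the removal of the paired methyl groups, fell by 0.32 ± 0.07 with 6860766 (adjusted p = 0.0121) and differed by -0.10 ± 0.07 with 6877002 (adjusted p = 0.495). Lbr differed by -0.25 ± 0.08 with 6877002 (adjusted p = 0.109) and -0.24 ± 0.08 with 6860766 (adjusted p = 0.143), and Sc5d, a desaturase, by 0.31 ± 0.15 and -0.03 ± 0.15; none of these passed. Of 5 genes that feed electrons to these enzymes or turn them over, Cyb5a, a cytochrome b5, rose with 6860766 by 0.25 ± 0.06 (adjusted p = 0.0276), and was lower with 6877002 than with 6860766 by 0.25 ± 0.06 (adjusted p = 0.02). Of these 5, 0 passed in the comparison of 6877002 with vehicle, where 2 had an unadjusted p under 0.05 (limma).

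None of 8 tested genes that control SREBP or move sterols passed in any of the 3 comparisons. Srebf2, which encodes SREBP2, differed by -0.21 ± 0.09 with 6877002 (adjusted p = 0.269) and by -0.31 ± 0.09 with 6860766 (adjusted p = 0.0975). Insig1, which retains SREBP in the endoplasmic reticulum and is itself a target of it, differed by -0.10 ± 0.14 and -0.21 ± 0.14. At an unadjusted p under 0.05 (limma) there were 3 of the 8 with 6877002, 2 with 6860766 and 1 between the compounds. The median difference of the 8 genes was -0.076 with 6877002 and 0.037 with 6860766. Srebf2 and Insig1 were named after their values were seen.

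Among 7 tested LXR and oxysterol genes, 1 fell with 6860766 and 0 passed with 6877002, where 3 had an unadjusted p under 0.05 (limma). The one that fell was Ch25h, the enzyme that makes an oxysterol known to restrain SREBP2. It read 7.26, 7.47 and 7.46 with 6877002, 6.04, 5.95 and 6.15 with 6860766, and 7.01, 7.20 and 7.06 with vehicle. The 6877002 arrays were the highest and the 6860766 arrays the lowest, without overlap. Ch25h fell by 1.04 ± 0.11 with 6860766 (adjusted p = 2.33e-05), differed by 0.31 ± 0.11 with 6877002 (adjusted p = 0.162), and was higher with 6877002 than with 6860766 by 1.35 ± 0.11 (adjusted p = 2.95e-07).

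Of 7 tested genes of fatty acid synthesis, Acly and Scd1 fell with 6877002 (by 0.26 and 0.34) and Acly, Scd1 and Acss2 with 6860766 (by 0.38, 0.64 and 0.68). Acss2 makes acetyl-CoA from acetate, and was higher with 6877002 than with 6860766 by 0.49 ± 0.07 (adjusted p = 0.000332). Scd1 was also higher with 6877002 than with 6860766, by 0.29 ± 0.08 (adjusted p = 0.0429). The median difference of the 7 genes was -0.19 with 6877002 and -0.38 with 6860766.

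**Figure D4:**
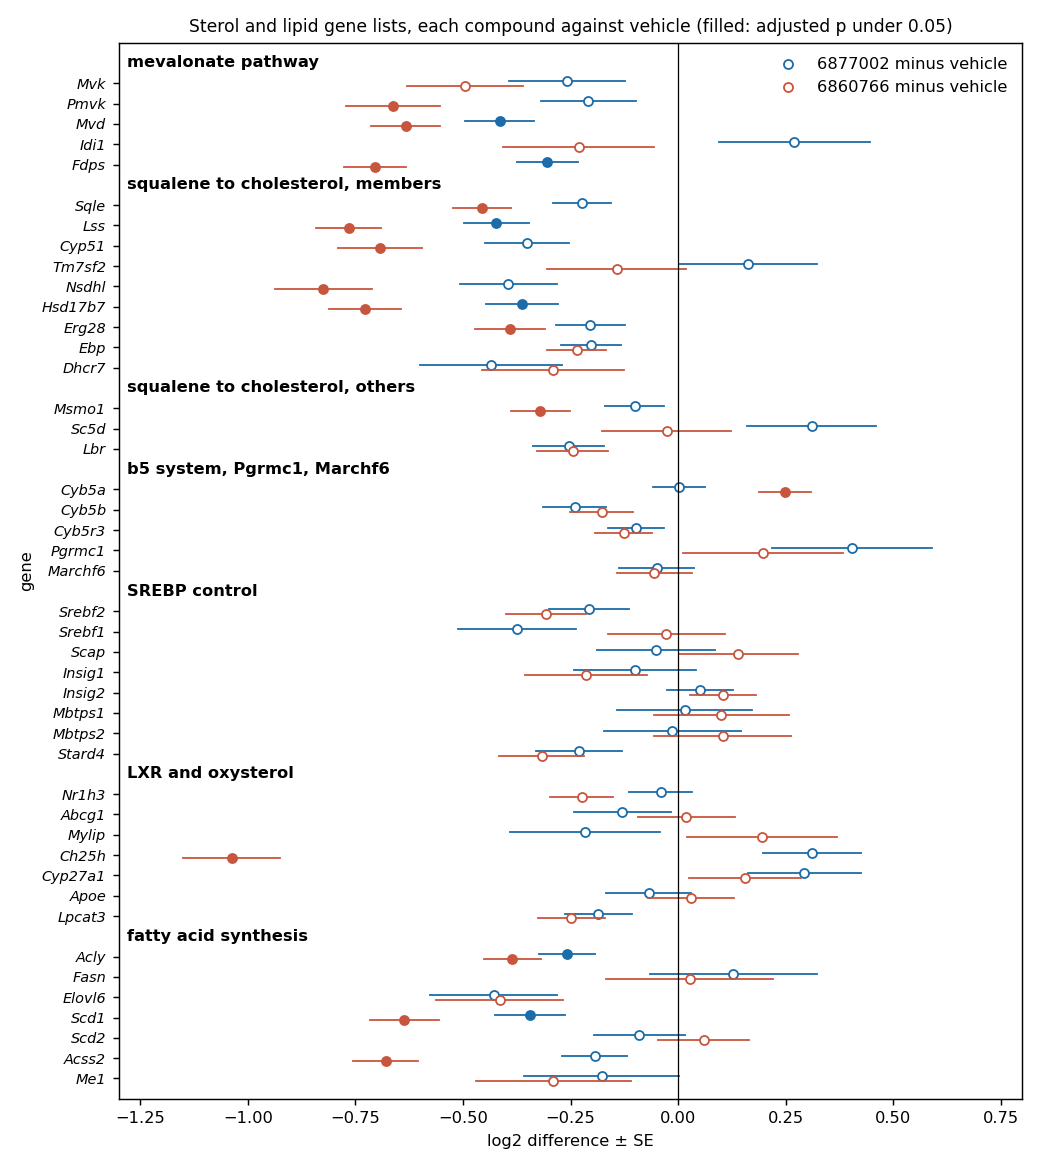
Log2 difference from vehicle, with its standard error, for the tested genes of the sterol and lipid lists (vertical axis, grouped by list) with 6877002 and with 6860766. Filled points passed at an adjusted p under 0.05: with 6860766, 3 mevalonate genes, 6 of the 9 genes described here, Msmo1, Cyb5a, Ch25h and 3 fatty acid genes, and none of the 8 genes of SREBP control.

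The label of macrophages was checked against marker genes. All 8 macrophage markers named on the array were detected, with a median log2 level of 12.2, whereas 0 of 5 T cell, 0 of 5 dendritic cell, 0 of 5 fibroblast and 0 of 2 erythroid markers passed the detection filter. Of 3 B cell markers Cd79b was detected, and of 5 neutrophil markers 4, with a median log2 level of 7.72, and none of these differed between groups at an adjusted p under 0.05. The ranges of single markers overlapped. Group means ran from 6.04 for Itgam to 14.12 for Lyz2 among the macrophage markers. Among the neutrophil markers they ran from 4.71 for Mpo to 10.45 for S100a8. Mertk and Fcgr1 rose with 6877002 (by 0.50 and 0.40), while Fcgr1 and Cd40 fell with 6860766 (by 0.55 and 0.28). The mean log2 level of the 8 markers was 11.06 to 11.15 on the 6877002 arrays, 10.91 to 10.92 on the 6860766 arrays and 10.99 to 11.06 on the vehicle arrays. Their part in the differences of the sterol genes was not tested. Between 15271 and 15926 probes were detected per array, and arrays of one group correlated at 0.993 to 0.996.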

How the data were processed

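Total RNA of 9 macrophage cultures was hybridised to Illumina mouse BeadChip arrays. Per the submitters' processing notes, GenomeStudio 2011.1 gave the deposited intensity and detection p-value of each probe, and limma 3.22.7 under R 3.1.3 gave the deposited log2 values. The authors' log2 values were matched by recomputing them here from the intensity table (limma neqc, offset 16); the largest difference was 0.016. They were analysed in R 4.3.3 with limma 3.58.1.

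Probes with a detection p under 0.05 on at least 3 arrays were kept. The probe with the highest mean stood for each symbol, giving 11406 features, including detected probes without a symbol. One fit with a coefficient per group (eBayes with trend) gave two-sided moderated tests with Benjamini-Hochberg adjustment over all features. Groups and replicate numbers come from the sample titles. P-values rest on the spread between arrays within groups, pooled over all groups and moderated by the trend over all features. The 3 arrays per group limit their precision. An exact permutation of 3 against 3 cannot go below p = 0.1. The script was tested on simulated data. Promoter windows are RefSeq's (GRCm38.p6).

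The labels number the mice 1 to 3 in each group but not by title replicate. The main fit has no block, because the labels do not say that a mouse number marks 1 animal in all groups. Correlations of deviations from group means lay between -0.15 and 0.16 for arrays of different groups with the same mouse number. For other mouse numbers they lay between -0.21 and 0.28. With 3 arrays per group these values cannot decide whether animals were shared. The members and gene lists were chosen with earlier results of these data known. The rule named all 9 members, all mevalonate and post-squalene genes, up to 6 genes past the threshold per other list, and the 8 genes most like the members' mean. Alternatives changed background correction, offset, scaling, filters, probe rule, variance model, blocks, and left out each array.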

Additional observations from a re-analysis of the deposited data

How the results depend on the processing

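The 6 genes that fell with 6860766 numbered 5 to 7 under 26 alternatives. The count with 6877002, 2 genes, became 1 with the mean of the probes of a symbol, with slide as a block and with pairs of slides as a block, 5 with array weights and with only the compared groups in the fit, 0 with eBayes without trend (limma, 7 genes at an unadjusted p under 0.05), and 1 to 5 with 1 array left out. Between the compounds, 3 genes became 5 with slide as a fixed or a random block, 0 with eBayes without trend (limma, 5 at an unadjusted p under 0.05), and 0 to 4 with 1 array left out. The median with 6877002 was -0.22 with no background correction, -0.18 with slide as a block and -0.19 with pairs of slides as a block, and that between the compounds was 0.17 with the mean of the probes. Signs turned only for the 2 dim probes. Dhcr7 between the compounds was 0.18 with slide as a block, 0.10 with pairs of slides as a block and 0.23 within one slide. Tm7sf2 was -0.035 with 6877002 with pairs of slides as a block and -0.12 between the compounds within one slide. Hsd17b7 with 6877002 lost its call under 7 of 26 alternatives, and its adjusted p reached 0.282. Between the compounds Nsdhl lost its call under 7 of 26 (adjusted p up to 0.138), Lss under 4 (up to 0.366) and Hsd17b7 under 3 (up to 0.107). Erg28 with 6860766 also lost its call with eBayes without trend (adjusted p = 0.0914). For these results the cause was not tested. In the fit with a replicate block for mouse number, the counts were 2, 6 and 3 for 6877002 against vehicle, 6860766 against vehicle and 6877002 against 6860766, and no call changed. Probes near background, such as those of Tm7sf2 and Dhcr7, limit what 3 arrays per group can show.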

Other observations

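The 3 probes that were detected on 0 arrays lay near background. The Sqle probe read 4.34 to 4.56, the Lss probe 4.33 to 4.67 and the Hsd17b7 probe 4.29 to 4.65 on the log2 scale, on arrays whose median over all probes was 4.53. Their symbols come from the platform annotation, which assigns the Sqle and Hsd17b7 probes to other transcript records than the detected probes of the same genes and the Lss probe to the same record as its bright probe.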
